A study of Mus musculus with 9 samples.

Results

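The genes described here are 7 matrix metalloproteinases (MMPs) that lie outside the metalloproteinase cluster of chromosome 9, Mmp2, Mmp9, Mmp11, Mmp14, Mmp16, Mmp19 and Mmp23, and 3 tissue inhibitors of metalloproteinases, Timp1, Timp2 and Timp3. They were picked by symbol, through the Ensembl gene ID in GENCODE M21, and all 10 were found among the 16428 genes of the table and passed the filter on low values. RNA was measured by poly(A) sequencing in mouse embryonic fibroblasts (MEFs), primary connective tissue cells, in 9 libraries. CARM1i cells (3 libraries) were given TP-064 at 1 uM, an inhibitor of the arginine methyltransferase CARM1, KO cells (3 libraries) were given 4-hydroxytamoxifen (4-OHT) at 2 uM, and WT cells (3 libraries) had no treatment, all for 6 days. Every group has the same genotype, CARM1f/f ER-Cre, so the WT cells also carry the floxed Carm1 gene and a Cre recombinase that 4-OHT switches on. None of the 3 groups had 4-OHT without the floxed gene and none is labelled as vehicle, so 4-OHT cannot be told apart from the deletion, nor any vehicle from the inhibitor. The labels do not say whether replicates were separate cultures, embryos or lines, and all p-values therefore refer to the variation among these 9 libraries, part or all of which may be technical.

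MMPs are zinc-dependent proteases that cut collagens, other matrix proteins and cell surface proteins. They are made as inactive precursors, and TIMPs block the active enzymes by binding to the catalytic site. In fibroblasts the best known circuit is that of MMP14, a protease anchored in the plasma membrane, which binds TIMP2; this pair captures the precursor of MMP2, a secreted gelatinase, and a free MMP14 molecule then activates it, so that TIMP2 both inhibits MMP14 and serves as the bridge for MMP2. RNA levels of proteases and inhibitors do not measure enzyme activity.

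The RefSeq promoter table (GRCm38.p6) matched 6 of the 10 genes, Mmp11, Mmp14, Mmp23, Timp1, Timp2 and Timp3, and the 250 bases before the annotated start were read. The windows of 3 of them are shown because their genes stand for the directions met below. Mmp14 and Timp1 were higher in KO and Timp3 was lower in KO and in CARM1i. Capitals mark GC boxes (GGGCGG) and CCAAT boxes (CCAAT) on either strand. Bases that GENCODE counts as exon of the gene were left out, which shortened the Timp3 window to 210 bases.
Mmp14 (chr14:54431348-54431597, plus strand): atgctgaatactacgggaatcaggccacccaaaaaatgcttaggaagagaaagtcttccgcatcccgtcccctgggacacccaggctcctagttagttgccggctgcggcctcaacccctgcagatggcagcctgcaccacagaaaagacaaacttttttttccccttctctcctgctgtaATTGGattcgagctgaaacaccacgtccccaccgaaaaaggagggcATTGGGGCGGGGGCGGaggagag
Timp1 (chrX:20869916-20870165, plus strand): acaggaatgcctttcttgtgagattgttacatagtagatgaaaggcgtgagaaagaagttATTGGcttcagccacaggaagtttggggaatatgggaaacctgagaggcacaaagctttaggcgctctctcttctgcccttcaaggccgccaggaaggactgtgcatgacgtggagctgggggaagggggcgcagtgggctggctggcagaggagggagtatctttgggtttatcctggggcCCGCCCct
Timp3 (chr10:86300162-86300371, plus strand): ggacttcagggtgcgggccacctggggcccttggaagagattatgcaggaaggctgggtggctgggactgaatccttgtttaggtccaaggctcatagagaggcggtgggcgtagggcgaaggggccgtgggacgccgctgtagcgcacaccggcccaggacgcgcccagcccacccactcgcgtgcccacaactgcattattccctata
The Mmp14 window holds 2 GC boxes side by side close to the start and 2 CCAAT boxes, the nearer of which shares a base with the first GC box. The Timp1 window holds 1 of each, and the only motif of the Timp3 window, a GC box, lies in the part that is not printed. Of the windows not shown, that of Mmp11, a gene lower in KO, holds 2 GC boxes. The window of Timp2, a gene higher in KO, holds 1 GC box and 1 CCAAT box, and Mmp23 has neither motif. The windows shown were picked by direction, and a link between motif and direction was not tested. A GC box was found in 32.7% and a CCAAT box in 33.8% of all 32851 promoter windows of this length. None of the windows of the 6 genes holds an AP-1 site (TGANTCA, in 6.75% of windows), a cAMP response element (TGACGTCA, in 1.55%) or a TATA box (TATAAA, in 12.4%), which says only that these letters are not in these bases.

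The libraries held 28657018 to 35842771 reads. Carm1 itself averaged 1057 ± 64 normalized read counts in CARM1i, 758 ± 43 in KO and 1104 ± 34.1 in WT (SD, n = 3 each), counted over the whole gene, so the value does not check the deletion of the floxed exons. All values below are normalized read counts, that is reads divided by the size factor of the library. In a principal component analysis of all genes, the third component placed CARM1i replicate 3 at -19.5 and CARM1i replicates 1 and 2 at 11 and 11.7. The same component set WT replicate 3, at 10.3, apart from WT replicates 1 and 2, at -8.65 and -5.68. Results that rest on CARM1i replicate 3 are given with and without it, except for most single genes outside the 10. Values without WT replicate 3 are given for Timp3 only, and the ratios, sums and list counts were not repeated without that library. The fibroblast markers matched the label, with Vim, Col1a2 and Pdgfra among the abundant genes, except that Lum averaged 5.77 in CARM1i, 5.38 in KO and 6.74 in WT. The 8 fibroblast markers summed to 218446 to 242159 in CARM1i, 186216 to 198181 in KO and 248994 to 258835 in WT; this moved with the groups, and its part in the results below was not tested. The level of the sum is carried by Col1a2 and Vim. Its fall in KO lay more in Col1a2 (56970 in KO, 79690 in WT), Pdgfra (23991, 38495) and Col1a1 (12075, 23155) than in Vim (63397, 72379). Thy1 went the other way, at 16896 ± 368 in CARM1i, 15871 ± 459 in KO and 13960.3 ± 115 in WT. It was higher than WT in both treated groups by limma. Of 5 epithelial markers 2 were analysed, Krt18 and Krt19, with sums of 47.7 to 61.8 in CARM1i, 103 to 145 in KO and 42.2 to 72.4 in WT. The KO sum is carried by Krt18, at 39.2 ± 6.03 in CARM1i, 112 ± 17.8 in KO and 38 ± 13 in WT, higher in KO by limma. Krt19 averaged 15.8 ± 4.27 in CARM1i, 14.7 ± 4.16 in KO and 20.9 ± 3.1 in WT, and did not pass. The 5 endothelial markers, of which Pecam1 was near 0, summed to 435 to 454 in CARM1i, 463 to 525 in KO and 389.5 to 446 in WT. Egfl7, at 196 ± 5.63 in CARM1i, 183 ± 20.9 in KO and 143 ± 16.2 in WT, was higher in both treated groups by limma. Tek averaged 197 ± 21 in CARM1i, 238 ± 25.4 in KO and 234 ± 15 in WT, and Tek, Cdh5 and Kdr did not pass. The part of the epithelial and endothelial markers in the results was likewise not tested. In bulk samples fewer cells of a type and less RNA per cell cannot be told apart.

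Per kilobase of exon (all exons of the gene merged), the inhibitors Timp1 and Timp2 were the most abundant of the set in each of the 3 groups and Mmp9 and Mmp23 the least. In WT, Timp1 averaged 10943 ± 362 and Timp2 6932 ± 337 normalized counts per kb. Mmp2 was the highest protease at 3362 ± 82, followed by Mmp14 at 1830.0 ± 44.7, Mmp19 at 1684 ± 58.6 and Mmp11 at 786 ± 7.81 (SD, n = 3). Timp1 ranked 76 of 16413 genes by this measure and Mmp9 10300. The neighbours Mmp16, at 432 ± 7.37, and Timp3, at 368 ± 53.4, overlapped between WT libraries, as did Mmp14 and Mmp19 in CARM1i libraries and Mmp23 and Mmp9 in CARM1i libraries, and no other neighbours overlapped within a group. The bottom of the order differed between groups: Mmp9 averaged 27 ± 2.84 per kb in CARM1i, 14.9 ± 2.3 in KO and 49.6 ± 3.96 in WT, beside 32.6 ± 7.6, 37.2 ± 7.32 and 38.2 ± 0.884 for Mmp23. At the top, the gap between the pair of soluble inhibitors was smallest in KO, where Timp2 stood at 10189 ± 196 per kb and Timp1 at 12267 ± 629.

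**Figure D1:**
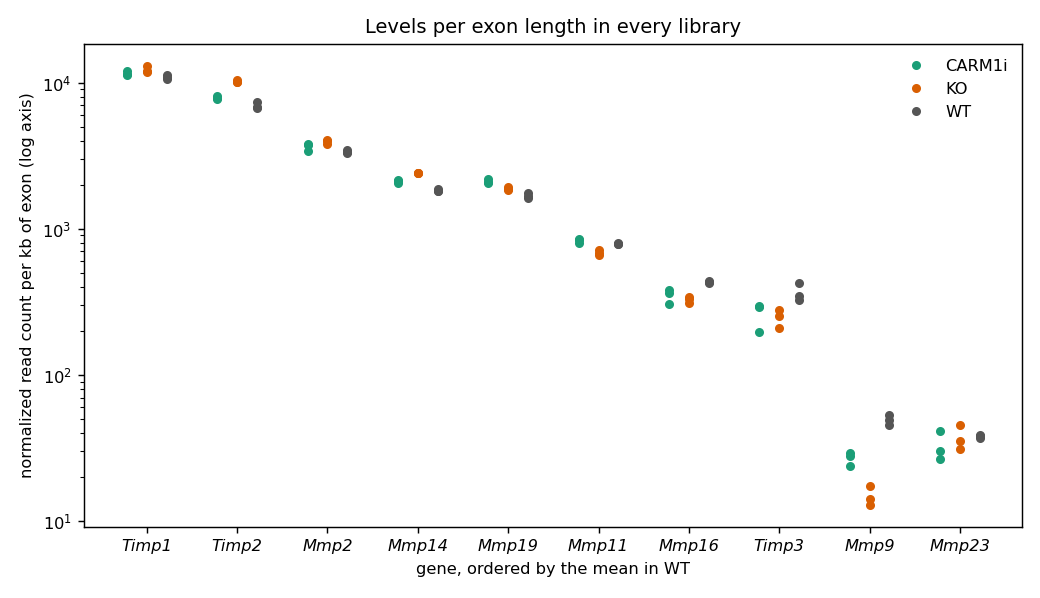
Normalized read count per kilobase of exon (log axis) of each gene in each of the 9 libraries, 1 point per library, genes ordered by the WT mean. Timp1 and Timp2 lie at the top in each group, and Mmp9 falls below Mmp23 in the CARM1i and KO means but not in WT.

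The first comparison asked how the set differs after 4-OHT treatment of cells with floxed Carm1. The RNAs of the MMP14, MMP2 and TIMP2 circuit were all higher in KO, with Timp2 1.47-fold, Mmp14 1.31-fold and Mmp2 1.17-fold above WT. Mmp9, the second gelatinase, fell to 30% of the WT mean, and Timp3, the inhibitor that is held in the matrix, to 67.4%. Of the 10 genes, 5 were higher, 4 were lower and 1 did not pass, by limma with Benjamini-Hochberg adjustment over all genes tested and a threshold of 0.05. Over all 14560 genes tested 41.9% passed, 21.4% higher and 20.5% lower, so calls in both directions were common in this comparison. The median log2 fold change of the 10 was 0.05, beside -0.004 over all genes.

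The second comparison concerned the inhibitor, given to cells whose Carm1 gene was not deleted. In CARM1i, Timp2 was 1.14-fold, Mmp14 1.16-fold and Mmp19 1.25-fold above WT, and Mmp9, Timp3 and Mmp16 were lower. Mmp9 again had the largest difference of the 10 genes, at 54.4% of the WT mean. In total, 3 of the 10 genes were higher, 3 were lower and 4 did not pass, where 19.1% of all genes passed, 10.5% higher and 8.59% lower. Without CARM1i replicate 3 the count was 4 higher and 3 lower, Mmp2 being added. The median log2 fold change of the 10 was 0.08, beside -0.005 over all genes. Both comparisons use the same WT libraries.

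The third comparison set inhibitor against deletion. Mmp9, Mmp11 and Mmp19 were higher in CARM1i than in KO, and Mmp14, Timp2 and Mmp2 were lower, while 4 genes did not pass. The call of Mmp2 ended in 11 of 20 alternatives. Over all genes 23.6% passed, 12.1% higher and 11.5% lower. Without CARM1i replicate 3 the count was 5 higher, with Mmp16 and Timp3 added, and 3 lower, with Timp1 in place of Mmp2. The median over the 10 genes was -0.01, and 0.06 without CARM1i replicate 3, beside -0.002 over all genes.

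**Figure D2:**
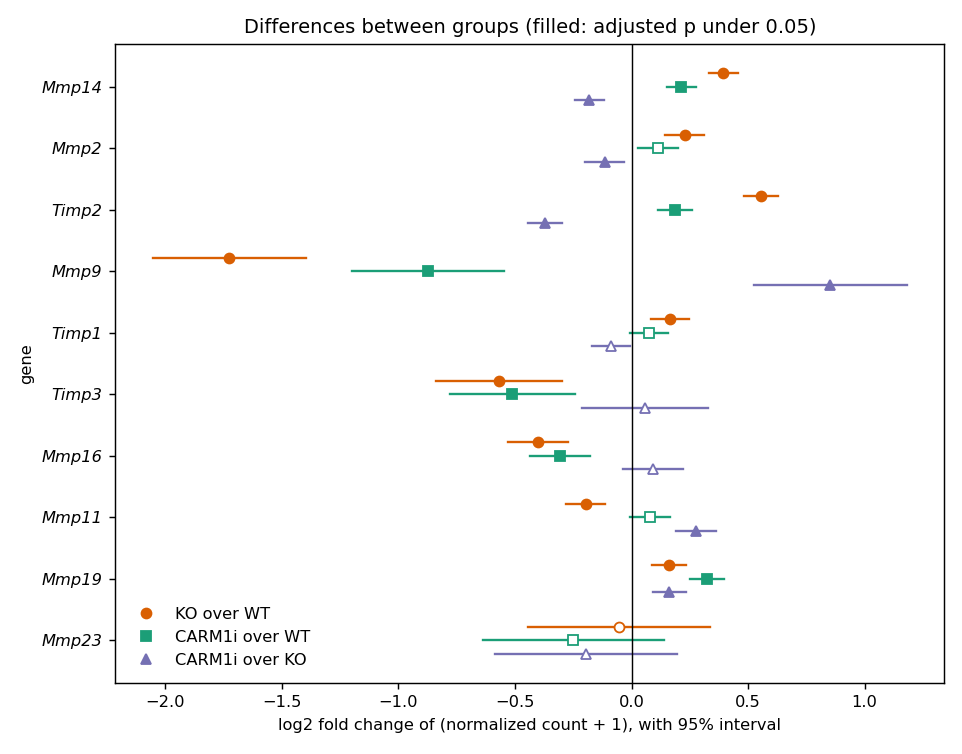
Log2 fold change (tested group over the other, on normalized count + 1) of each gene in KO over WT, CARM1i over WT and CARM1i over KO, with its 95% interval from limma, filled where the adjusted p is under 0.05. Mmp9 has the largest differences of the 10 genes, Mmp11 differs in sign between the first pair of comparisons, and the intervals of Mmp23 cross 0 in all 3.

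Mmp14 (ENSMUSG00000000957.11; mm10, chromosome 14, 54431612 to 54445364, plus strand), the membrane-anchored collagenase, measured 12916, 12342 and 12652 normalized counts in CARM1i replicates 1 to 3, 14376, 14312 and 14313 in KO and 10766, 10740.0 and 11214 in WT. The 3 groups did not overlap, and the KO libraries lay closest together. The log2 fold change was 0.39 ± 0.03 (SE) in KO over WT (adjusted p = 5.439e-09), 0.21 ± 0.03 in CARM1i over WT (adjusted p = 5.234e-05) and -0.18 ± 0.03 in CARM1i over KO (adjusted p = 0.0001783), all by limma. Thus each treated group lay above WT and CARM1i lay below KO, each time by more than the spread between libraries.

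Mmp2 (ENSMUSG00000031740.8; chromosome 8, 92827291 to 92853420, plus strand), the gelatinase that MMP14 activates, measured 12537, 12876 and 11414 in CARM1i, 13579, 12825 and 13420.3 in KO and 11375, 11038 and 11585 in WT. All KO libraries lay above all WT libraries, and CARM1i overlapped both, its replicate 3 within the WT range. KO was higher than WT by 0.23 ± 0.04 on the log2 scale (adjusted p = 0.0001464, limma). For CARM1i over WT the estimate was 0.11 ± 0.04, which missed the threshold (adjusted p = 0.05498) with a 95% interval of 0.03 to 0.20; without CARM1i replicate 3 it was 0.17 and passed (adjusted p = 0.0009055), and it also passed by edgeR (adjusted p = 0.04484) and by DESeq2 (adjusted p = 0.0412). CARM1i over KO gave -0.11 ± 0.04 (adjusted p = 0.04605), a call that ended in 11 of 20 alternatives, among them edgeR (adjusted p = 0.05181), the replicate block (adjusted p = 0.06816) and the compared groups alone (adjusted p = 0.06207). Without CARM1i replicate 3 it was -0.06 (adjusted p = 0.182).

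Timp2 (ENSMUSG00000017466.9; chromosome 11, 118301069 to 118355740, minus strand) encodes the inhibitor that bridges MMP14 and the MMP2 precursor. It measured 30187, 30588 and 31302 in CARM1i, 39224, 39284 and 40577 in KO and 25979.5, 26552 and 28486 in WT. The groups did not overlap, with KO highest and WT lowest. The log2 fold changes were 0.56 ± 0.03 in KO over WT (adjusted p = 4.225e-10), 0.19 ± 0.03 in CARM1i over WT (adjusted p = 0.0008087) and -0.37 ± 0.03 in CARM1i over KO (adjusted p = 3.088e-07). Cep295nl, a gene on the same strand within the span of Timp2, averaged 133 ± 19.4 in CARM1i, 159 ± 16.7 in KO and 117 ± 15.8 in WT, far below the Timp2 values.

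Mmp9 (ENSMUSG00000017737.2; chromosome 2, 164940780 to 164955850, plus strand) encodes gelatinase B, which in the body is made above all by leukocytes and by cells of remodelling tissue. It was expressed at a low level, with 84, 103 and 99.4 normalized counts in CARM1i, 61.6, 50.4 and 45.8 in KO and 189, 175 and 161 in WT. The 3 groups did not overlap: each KO library lay below each CARM1i library, and these below each WT library. KO over WT gave a log2 fold change of -1.73 ± 0.16 (adjusted p = 6.214e-08), number 57 among the falls of the 14560 genes. CARM1i over WT gave -0.87 ± 0.16 (adjusted p = 0.0005741), number 90 among the falls, and CARM1i over KO gave 0.85 ± 0.16 (adjusted p = 0.0005375). Of 8 macrophage markers, 4 were among the genes analysed (Cd68, Csf1r, Mrc1 and Cd14), and the defining markers Ptprc, Adgre1, Itgam and Aif1 were not analysed here. The sum of the 4 ran from 294 to 323 in CARM1i, 292 to 334 in KO and 253 to 318 in WT. Within it the markers differed in direction: Cd68 was higher in KO, at 86 ± 27.9 in KO and 42.5 ± 12.4 in WT, and Cd14, the most abundant, was lower in KO, at 135 ± 10.9 in CARM1i, 109 ± 17.8 in KO and 147 ± 17.7 in WT. The part of these markers in the Mmp9 result was not tested.

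Timp1 (ENSMUSG00000001131.11; chromosome X, 20870166 to 20874735, plus strand) encodes a secreted inhibitor that binds the precursor of MMP9 and is a weak inhibitor of the membrane-type enzymes. It measured 9943, 10157 and 10643 in CARM1i, 11536, 10532 and 10610.1 in KO and 9440.2, 9642 and 10070.1 in WT. The KO libraries lay above the WT libraries, and CARM1i overlapped both groups. The rise in KO was small, at 0.16 ± 0.04 on the log2 scale (adjusted p = 0.002204, limma). CARM1i over WT was 0.08 ± 0.04 and missed the threshold (adjusted p = 0.1909), with a 95% interval that ends at 0.16. CARM1i over KO was -0.09 ± 0.04 (adjusted p = 0.1172) and passed without CARM1i replicate 3 (-0.12, adjusted p = 0.02976). Timp1 lies within Syn1, a gene of the opposite strand that is not used here; the strand setting of the counting is not given in the sources used here, so reads of such a partner could not be told apart.

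Timp3 (ENSMUSG00000020044.13; chromosome 10, 86300372 to 86349506, plus strand) encodes the inhibitor that binds to the matrix and also blocks ADAM17 and the aggrecanases. It measured 2362, 2408 and 1598 in CARM1i, 2274, 1716 and 2063 in KO and 2673, 2822 and 3490.0 in WT. Each treated library lay below each WT library, while CARM1i and KO overlapped and the spread within each group was wide. The log2 fold change was -0.57 ± 0.13 in KO over WT (adjusted p = 0.001472) and -0.51 ± 0.13 in CARM1i over WT (adjusted p = 0.008331), both by limma. Without WT replicate 3, the highest library, the values were -0.45 in KO (adjusted p = 0.0117) and -0.40 in CARM1i (adjusted p = 0.04892). In CARM1i over WT the value was -0.32 without CARM1i replicate 3 (adjusted p = 0.01607), and the call ended with DESeq2 (adjusted p = 0.06135) and without the intensity trend (adjusted p = 0.1275). CARM1i over KO gave 0.06 ± 0.13 (adjusted p = 0.7948), with a 95% interval of -0.21 to 0.33, and 0.25 without CARM1i replicate 3 (adjusted p = 0.04598). Syn3, which spans Timp3 on the opposite strand, averaged 4.38 ± 1.2 in CARM1i, 7.41 ± 2.96 in KO and 7.25 ± 2.7 in WT, far below the Timp3 values.

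**Figure D3:**
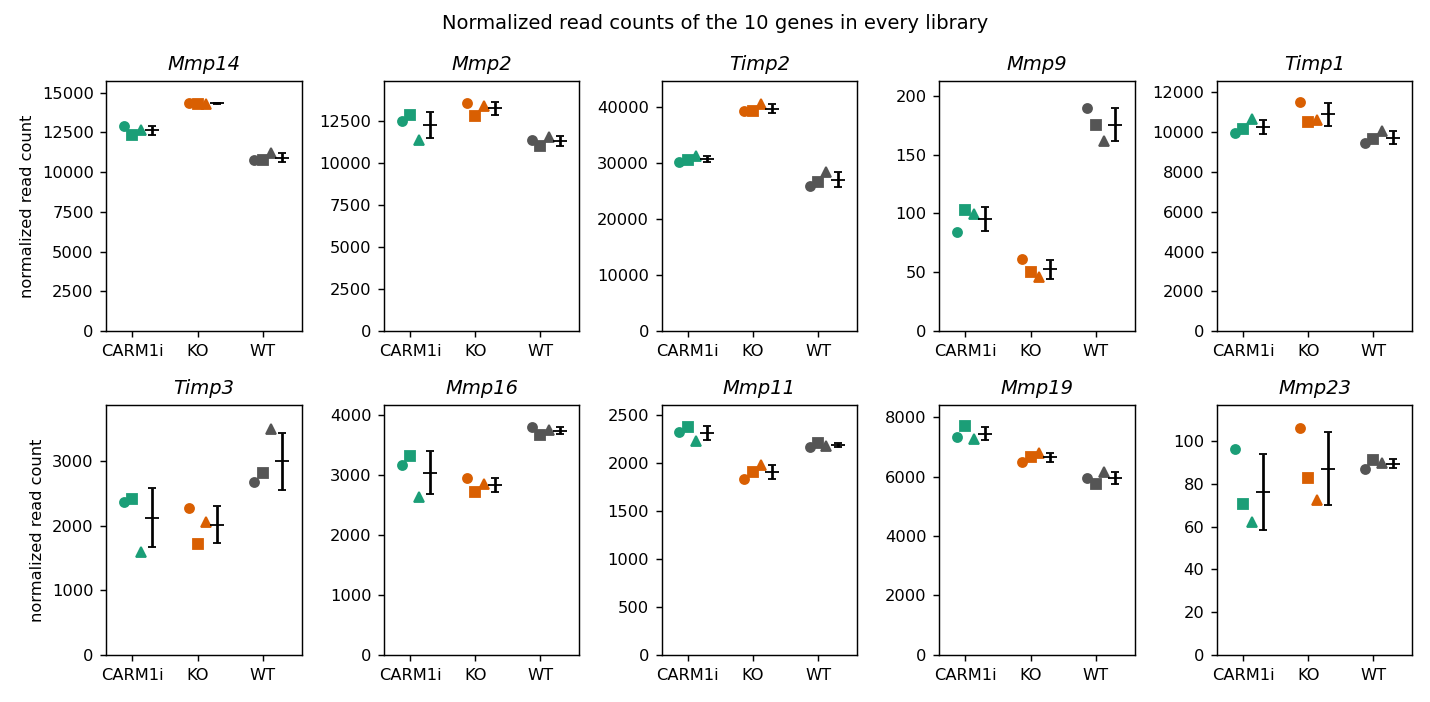
Normalized read counts of the 10 genes in CARM1i, KO and WT libraries (linear axes from 0; circle, square and triangle are replicates 1, 2 and 3; bars are mean ± SD, n = 3). Mmp14, Timp2, Mmp9, Mmp11 and Mmp19 separate all 3 groups, and CARM1i replicate 3 is the lowest of its group for Timp3, Mmp16 and Mmp2.

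Mmp16 (ENSMUSG00000028226.15; chromosome 4, 17852893 to 18119145, plus strand) encodes another membrane-type metalloproteinase, MT3-MMP, which can also activate the MMP2 precursor. In contrast to Mmp14 it was lower in both treated groups, with 3176, 3315 and 2631 in CARM1i, 2951, 2712 and 2854 in KO and 3801, 3675 and 3757 in WT. No treated library reached the WT range, and CARM1i and KO overlapped. The log2 fold change was -0.40 ± 0.06 in KO over WT (adjusted p = 3.816e-05) and -0.31 ± 0.06 in CARM1i over WT (adjusted p = 0.001573), and the call in CARM1i ended without the intensity trend (adjusted p = 0.05594). Without CARM1i replicate 3 the value in CARM1i over WT was -0.21, the weakest among the alternatives, and it still passed. CARM1i over KO was 0.09 ± 0.06 (adjusted p = 0.3133, 95% interval -0.04 to 0.22), and 0.19 without CARM1i replicate 3 (adjusted p = 0.00103).

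Mmp11 (ENSMUSG00000000901.16; chromosome 10, 75923222 to 75936496, minus strand) encodes stromelysin-3, a secreted enzyme of stromal cells that furin activates inside the cell. It measured 2321, 2378 and 2230.3 in CARM1i, 1832, 1907 and 1978 in KO and 2169, 2209 and 2175 in WT. The KO libraries lay below the WT libraries and the CARM1i libraries just above them. KO over WT was -0.20 ± 0.04 (adjusted p = 0.0006697), CARM1i over WT 0.08 ± 0.04, which did not pass (adjusted p = 0.1907, 95% interval -0.01 to 0.17), and CARM1i over KO 0.28 ± 0.04 (adjusted p = 6.024e-05), so the difference between the treatments was itself past the threshold. Chchd10, which overlaps Mmp11 on the opposite strand, averaged 48.1 ± 9.21 in CARM1i, 53.8 ± 15.3 in KO and 39.5 ± 11.4 in WT.

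Mmp19 (ENSMUSG00000025355.7; chromosome 10, 128790910 to 128800824, plus strand) encodes a secreted metalloproteinase that cuts basement membrane proteins. It was the only one of the 10 genes called higher both in CARM1i over WT and in CARM1i over KO. It measured 7344, 7698 and 7283 in CARM1i, 6504, 6654 and 6784 in KO and 5939.8, 5748 and 6162 in WT, and the groups did not overlap. The log2 fold change was 0.16 ± 0.03 in KO over WT (adjusted p = 0.001015), 0.32 ± 0.03 in CARM1i over WT (adjusted p = 3.221e-06) and 0.16 ± 0.03 in CARM1i over KO (adjusted p = 0.001941). Tmem198b, whose end overlaps that of Mmp19 on the opposite strand, averaged 695 ± 58.6 in CARM1i, 679 ± 27.5 in KO and 701 ± 14.2 in WT.

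Mmp23 (ENSMUSG00000029061.2; chromosome 4, 155650655 to 155653384, minus strand) encodes an unusual member that is held in the membrane as a precursor and released by cleavage. It measured 96.2, 70.5 and 62 in CARM1i, 106, 82.7 and 72.5 in KO and 87, 91 and 89.8 in WT. The groups overlapped, and the treated libraries were more spread than the WT libraries. No difference passed. The log2 fold change was -0.05 ± 0.18 in KO over WT (adjusted p = 0.8408), -0.25 ± 0.18 in CARM1i over WT (adjusted p = 0.3959) and -0.20 ± 0.18 in CARM1i over KO (adjusted p = 0.5024), by limma. The 95% intervals ran from -0.44 to 0.34 in KO over WT, from -0.64 to 0.14 in CARM1i over WT and from -0.59 to 0.19 in CARM1i over KO on the log2 scale.

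Ratios of known partners were taken within each library, as the difference of log2(value + 1), for 6 pairs and 3 comparisons, 18 tests in all. The values were not divided by exon length, so the sign of a ratio does not give the order per kilobase. Per kilobase, Mmp2 stood above Mmp14 and Timp1 above Timp2 in each group. With 3 libraries against 3 the exact two-sided permutation test cannot go below p = 0.1, which is 0.1385 after adjustment over the 18, so no ratio could pass and they are given as values. The ratio of Mmp9 to Timp1 averaged -6.74 ± 0.13 in CARM1i, -7.68 ± 0.15 in KO and -5.79 ± 0.16 in WT (SD, n = 3 each), with no overlap between groups (exact p = 0.1 in each comparison). The ratio of Mmp14 to Timp2 averaged -1.28 ± 0.05 in CARM1i, -1.47 ± 0.03 in KO and -1.31 ± 0.04 in WT. KO lay below WT without overlap (exact p = 0.1), as Timp2 had the larger fold change, and CARM1i overlapped WT (exact p = 0.7).

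The ratio of Mmp2 to Timp2 averaged -1.32 ± 0.11 in CARM1i, -1.58 ± 0.04 in KO and -1.25 ± 0.05 in WT, with the same order of overlaps (exact p = 0.1 for KO against WT and 0.5 for CARM1i against WT). The difference of CARM1i from WT was -0.07, and -0.006 without CARM1i replicate 3. Among the inhibitors, Timp1 over Timp3 averaged 2.29 ± 0.38 in CARM1i, 2.44 ± 0.15 in KO and 1.71 ± 0.16 in WT. The CARM1i mean rests on replicate 3, with 2.07, 2.08 and 2.74 in replicates 1 to 3, and without it the mean was 2.07, the difference from WT 0.37 against 0.59 with it, and CARM1i no longer overlapped KO. Timp1 over Timp2 averaged -1.58 ± 0.02 in CARM1i, -1.87 ± 0.09 in KO and -1.47 ± 0.02 in WT. In neither of these 2 ratios did a treated group overlap WT (exact p = 0.1). Mmp14 over Mmp2 averaged 0.04 ± 0.10 in CARM1i, 0.11 ± 0.04 in KO and -0.06 ± 0.02 in WT, with KO above WT without overlap. Its difference between CARM1i and WT was 0.10, and 0.05 without CARM1i replicate 3, and that between CARM1i and KO was -0.07, and -0.12 without it, where CARM1i no longer overlapped KO.

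**Figure D4:**
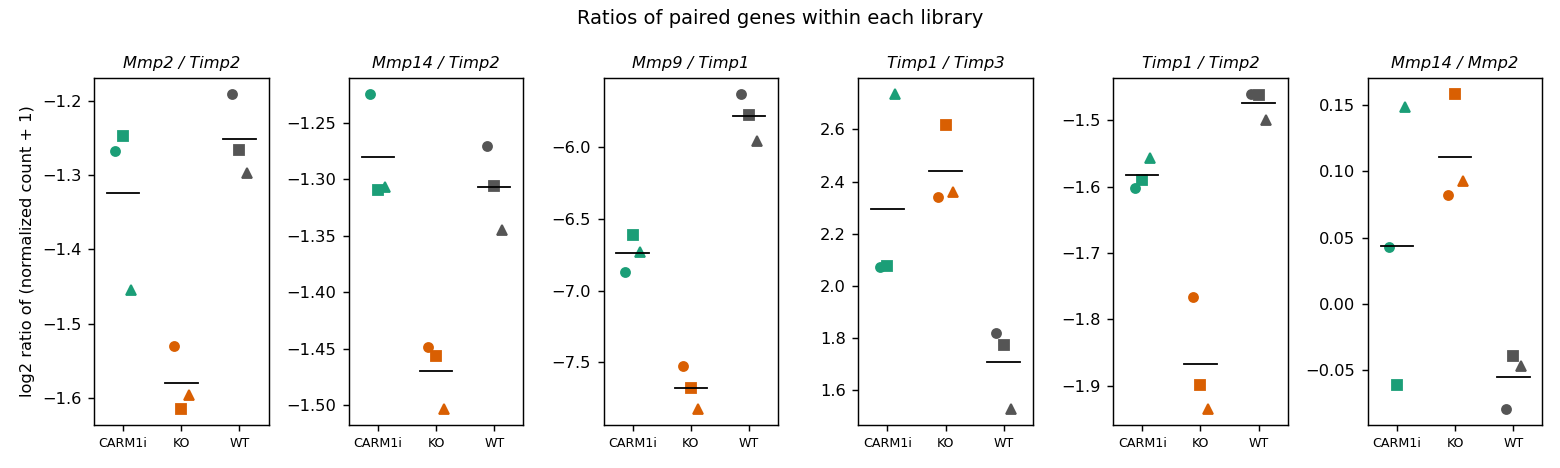
Log2 ratio of (normalized count + 1) of 6 gene pairs within each library, in CARM1i, KO and WT (circle, square and triangle are replicates 1, 2 and 3; lines are means, n = 3; each panel has its own axis, which does not start at 0). The KO libraries lie apart from the WT libraries in each panel, and the CARM1i libraries lie between the KO and WT libraries for Mmp9 over Timp1 and Timp1 over Timp2.

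Summed per kilobase, the 7 proteases averaged 9110.0 ± 335 in CARM1i, 9290.0 ± 133 in KO and 8182 ± 176 in WT, and the 3 inhibitors 19679 ± 497 in CARM1i, 22703 ± 597 in KO and 18242 ± 752 in WT (SD, n = 3 each). The 3 inhibitors therefore stood at 2.16 ± 0.132 times these 7 proteases in CARM1i, 2.44 ± 0.0474 times in KO and 2.23 ± 0.0646 times in WT. CARM1i replicate 3, at 2.32, lay above replicates 1 and 2, at 2.08 and 2.09; without it the CARM1i mean was 2.09, below each WT library, and the difference from WT was -0.142 against -0.066 with it. Timp2 made up 40 ± 0.272% of the summed inhibitor level in CARM1i, 44.9 ± 1.55% in KO and 38 ± 0.286% in WT. These sums rest mostly on the abundant members and carry no test. They leave out the proteases of chromosome 9, of which Mmp3 averaged 3107 ± 819 normalized counts in CARM1i, 6675 ± 254 in KO and 3024 ± 138 in WT. The ratio therefore does not describe all inhibitors against all MMPs of these cells.

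Over the 9 libraries, the genes most like each member by the Pearson correlation of log2(value + 1) were sought among 10325 protein-coding genes with a mean of at least 100. The libraries form 3 groups, so these values describe the order of the groups and carry no test. Mmp14 was closest to Jam2 (r = 0.997), a junctional adhesion molecule, and Glmp (r = 0.997), a lysosomal membrane protein. Timp2 was closest to Lipa (r = 0.999), the lysosomal acid lipase, and Cxcl16 (r = 0.997), a membrane-bound chemokine. Mmp2 was closest to Emc3 (r = 0.99) and Lamtor1 (r = 0.982), a lysosomal anchor of mTORC1 signalling. Mmp9 was closest to Zfp57 (r = 0.996), a zinc finger protein of imprinted loci, and Shcbp1 (r = 0.994). For the others the closest genes were Amotl2 and Erh for Mmp16 (r = 0.99 and 0.983), Shb and Hgf for Mmp19 (0.99 and 0.976), Mtmr4 and Tead2 for Mmp11 (0.976 and 0.972), Gps1 and Kremen1 for Timp1 (0.97 and 0.964), and Zfp651 and Boc for Timp3 (0.965 and 0.964).

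Of the 17 other MMP and TIMP genes, 12 could be tested. In KO, 7 of these were higher and none lower by limma, with a median log2 fold change over the 12 of 1.20. Over all genes 21.4% were higher and 20.5% lower in KO. All 7 lie on chromosome 9 (Mmp1a, Mmp3, Mmp8, Mmp10, Mmp12, Mmp13 and Mmp27). Mmp1b, also on chromosome 9, did not pass, at 0.33 ± 0.25 in KO over WT (adjusted p = 0.306, limma). Mmp10 averaged 2315 ± 71.1 in KO and 770.0 ± 107 in WT, Mmp3 6675 ± 254 in KO and 3024 ± 138 in WT, Mmp13 384 ± 32.7 in KO and 160 ± 12.3 in WT, and Mmp12 89.7 ± 8.85 in KO and 23.6 ± 2.16 in WT. In CARM1i 3 of the 12 were higher, Mmp10 (0.58 ± 0.11), Mmp13 (0.54 ± 0.12) and Mmp27, and none lower. CARM1i replicates 1 to 3 measured 1014, 1015 and 1448 for Mmp10 and 193, 239 and 276 for Mmp13, so replicate 3 raised both values. Over all genes 10.5% were higher and 8.59% lower in CARM1i. Mmp27 averaged 14.9 ± 2.84 in CARM1i, 20.4 ± 6.35 in KO and 6.21 ± 3.77 in WT (adjusted p = 0.04191 in CARM1i over WT, limma). Mmp8 averaged 13.3 ± 4.17 in CARM1i, 21.6 ± 0.386 in KO and 7.31 ± 2.98 in WT. Both lay under 10 in WT and passed the filter through the treated groups, so their calls rest on values near the floor. Without CARM1i replicate 3, 2 were higher and 1, Mmp3, was lower, at -0.20 (adjusted p = 0.001566), against 0.01 ± 0.11 with all libraries. Of those outside chromosome 9, Mmp17, Mmp24, Mmp25 and Mmp28 did not pass in either comparison, and Mmp15 and Timp4, each under a mean of 10 over the 9 libraries, were not tested.

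The counts of the next 4 lists stand beside the shares over all genes, 21.4% higher and 20.5% lower in KO and 10.5% higher and 8.59% lower in CARM1i. Of 16 activators and surface partners of MMPs tested, 6 were higher and 4 lower in KO (median 0.05), and 5 were higher and 3 lower in CARM1i (median 0.06; 4 and 3 without CARM1i replicate 3). Plau, the urokinase that makes plasmin, averaged 34039 ± 1580 in KO and 23321 ± 760.5 in WT, a log2 fold change of 0.55 ± 0.06, and stood at 0.42 ± 0.06 in CARM1i over WT. CARM1i replicates 1 to 3 measured 28022, 30047 and 35861 for Plau, so replicate 3 raised the CARM1i value. Bsg, the MMP inducer basigin, was higher by 0.35 ± 0.03 in KO and 0.13 ± 0.03 in CARM1i, and Cd63, a tetraspanin that binds TIMP1, by 0.25 ± 0.03 in KO and 0.09 ± 0.03 in CARM1i. Cav1, the coat protein of caveolae, was lower by the same measure, at -0.66 ± 0.04 in KO and -0.67 ± 0.04 in CARM1i over WT. Furin, the convertase that activates membrane-type MMPs, did not pass in either comparison.

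Other inhibitors of proteolysis near the cell surface were measured in 12 cases, of which 4 were higher and 2 lower in KO (median 0.11), and 1 was higher and 2 lower in CARM1i (median 0.02), also without CARM1i replicate 3. With 12 genes these counts are too few to be set apart from the shares over all genes. Serpinb6a was higher in KO by 0.31 ± 0.04, Serpine2, protease nexin 1, by 0.31 ± 0.06 and Cst3, the cathepsin inhibitor cystatin C, by 0.19 ± 0.04. Serpinh1, a collagen chaperone of the serpin family, was lower, at -0.40 ± 0.03 in KO and -0.19 ± 0.03 in CARM1i over WT. Reck, a membrane-anchored MMP inhibitor, did not pass in either comparison. Of 19 ADAM and ADAMTS proteases, relatives of the MMPs that TIMP3 inhibits in part, 2 were higher and 11 lower in KO (median -0.32), and 1 was higher and 6 lower in CARM1i (median -0.15; 1 and 4 without CARM1i replicate 3). Adamts1 was lower in KO, with a log2 fold change of -0.89 ± 0.10, at 937 ± 27.5 in KO and 1747 ± 134 in WT, and Adam12 at -0.72 ± 0.05, while Adam15 was higher by 0.37 ± 0.04 and Adam33 by 0.39 ± 0.04.

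Of 17 tested matrix genes whose proteins MMPs cut, 1 was higher and 14 lower in KO (median -0.30), and 2 were higher and 7 lower in CARM1i (median -0.13; 2 and 6 without CARM1i replicate 3). Col3a1, which encodes a fibrillar collagen, was lower in KO, at -1.27 ± 0.06, as was Col1a1, at -0.94 ± 0.06. Vcan, at -0.56 ± 0.03, and Col5a1, at -0.53 ± 0.05, were also lower in KO. The single rise in KO was that of Fn1, fibronectin, at 0.40 ± 0.03. The members of these 5 lists named here follow a rule based on their adjusted p-values in the first pair of comparisons, except Furin, Reck, Mmp8, Mmp1a, Mmp1b, Mmp27, Mmp15, Mmp17, Mmp24, Mmp25, Mmp28 and Timp4, which were named after their values were seen.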

How the data were processed

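RNA from 9 MEF libraries was made into stranded poly(A) mRNA libraries, per the labels. The submitters' processing notes list mm10 and the tools DESeq 1.18.0, HTSeq 0.6.0 and TopHat2 2.0.10; which annotation was counted, and with which strand setting, is not given in the sources used here. Each signal per gene that the authors deposited is a read count after division by the size factor of its library. In each library 100% of values were whole multiples of 1 read (tolerance 1e-06); in KO replicate 2 that multiple is close to 1, so an automatic test cannot tell. IDs were matched to GENCODE M21 without version (16413 of 16428).

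With R 4.3.3, limma 3.58.1 (intensity trend on) was fitted to log2(value + 1) of the 14560 genes with a mean of at least 10, all 9 libraries in 1 fit of 3 groups, so fold changes understate those of low genes. P-values were adjusted over all genes by Benjamini-Hochberg (threshold 0.05). Values are mean ± SD, fold changes ± SE, and precision is limited by 3 libraries a group. The fit was tested on simulated data with 200 genes changed per group, far fewer than were called in the real data. It recovered 72.7% of 1.5-fold changes in KO over WT and 71% in CARM1i over WT. Of its calls, 14 of 170 in KO over WT and 7 of 163 in CARM1i over WT were of unchanged genes. Changes under 1.5-fold were not simulated. The same-numbered libraries did not deviate together, so the numbers were treated as names. Named genes are Carm1, the 10 members, per list up to 4 by adjusted p in KO and 2 in CARM1i, and the 2 genes most like each called member. Members and lists were chosen with earlier results of these data known. Alternatives were DESeq2 1.42.0 and edgeR 4.0.16 fitted to recovered reads, other scalings, filters and pseudocounts, no trend, only the compared groups, the replicate block, and each library left out; list counts, ratios and sums without CARM1i replicate 3 were added after seeing the data. Promoter sequences are RefSeq's, on GRCm38.p6.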

Additional observations from a re-analysis of the deposited data

How the results depend on the processing

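Over the 20 alternatives, all 9 calls of members in KO over WT held in direction and threshold. In CARM1i over WT 4 to 7 members and in CARM1i over KO 5 to 8 passed. The calls that changed were those of Mmp2, Mmp16, Timp1 and Timp3, and the causes were not tested. Mmp2 in CARM1i over KO missed the threshold in 11 of the 20, namely with quantile normalization, edgeR, no trend, the compared groups alone or the block, and without KO replicate 1 or 3, CARM1i replicate 1 or 3, or WT replicate 1 or 2. Without the intensity trend 1797 genes passed in CARM1i over WT, against 2784. On the recovered reads edgeR called 6140 genes in KO over WT, 2807 in CARM1i over WT and 3460 in CARM1i over KO. With the replicate block 5865, 2553 and 3156 genes passed in KO over WT, CARM1i over WT and CARM1i over KO, against 6100, 2784 and 3436 without it. The replicate block ended 1 call of a member, Mmp2 in CARM1i over KO (adjusted p = 0.06816). Correlations of deviations between same-numbered libraries ran from -0.087 to 0.0268, so the numbers are not shown to pair the libraries.

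Leaving out 1 library at a time turned the sign of some small differences that had not passed. The log2 fold change ran from -0.203 to 0.0672 for Mmp23 in KO over WT, and from -0.0536 to 0.251 for Timp3, -0.0595 to 0.0104 for Cav1, -0.0611 to 0.0267 for Cst3 and -0.0068 to 0.0644 for Adam33 in CARM1i over KO. In CARM1i over WT it ran from -0.0904 to 0.0661 for Serpine2 and from -0.198 to 0.117 for Mmp3, which stood at -0.009 with quantile normalization and -0.0069 rescaled to a common total. A pseudocount of 10 moved each of the 18 ratios of pairs by less than 1 SD. The low counts of Mmp9 and Mmp23 limit their precision.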
